A study of Homo sapiens with 6 samples.

Results

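The HER family comprises the 4 receptor tyrosine kinases EGFR, ERBB2 (HER2), ERBB3 (HER3) and ERBB4 (HER4). EGF-like ligands and neuregulins bind these receptors, which pair with one another and signal through the RAS-MAP kinase and PI3 kinase pathways. ERBB2 has no known ligand of its own and is the favoured partner of the others, and ERBB3 has a weak kinase but carries many docking sites for PI3 kinase. The ERBB2-ERBB3 pair is one route into PI3 kinase, and its weight in the cells used here was not tested. AKT, which acts below PI3 kinase, keeps the FOXO transcription factors out of the nucleus.

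The members are every probe set (a group of short oligonucleotides that reads 1 transcript) that the platform annotation assigns to one of these genes and to no other. They numbered 21 of the 54613 probe sets that are not manufacturer controls: 9 for EGFR, 3 for ERBB2, 5 for ERBB3 and 4 for ERBB4. RNA of T47D, a long-used line from a human luminal breast tumour, was measured on 6 arrays. Of these, 3 came from cells exposed for 6 hours to GDC-0941, an inhibitor of class I PI3 kinases, and 3 from control cells whose agent is labelled "none". Solvent for the controls is not mentioned in the labels, which give the dose as 1 mM, a unit that may have lost a micro sign. All 14 luminal markers (keratins, oestrogen receptor, GATA3, FOXA1 and others) lay above the median gene level of 8.20, at means of 10.12 to 14.27 (log2 RMA signal), whereas 0 of 3 leukocyte, 1 of 5 basal, 1 of 3 endothelial and 2 of 5 fibroblast markers did. Of these other markers 2 rose after GDC-0941, COL1A1 by 0.56 ± 0.065 and CD44 by 0.26 ± 0.06 (log2 difference ± SE, adjusted p 6.53e-05 and 0.00537 in limma). In that fit 12.1% of all genes were called higher. Over each of these marker lists the mean signal per array was 7.69 to 7.84 (fibroblast), 7.60 to 7.67 (basal), 7.64 to 7.82 (endothelial) and 6.25 to 6.39 (leukocyte) after GDC-0941, against 7.57 to 7.71, 7.63 to 7.68, 7.74 to 7.78 and 6.34 to 6.47 in controls. Their part in the results was not tested. Of the luminal markers, CDH1, PGR, FOXA1, XBP1 and PRLR were called higher and KRT8, KRT18, TFF1 and TFF3 lower. Those log2 differences ran from -0.36 (TFF1) to 0.53 (FOXA1), and the remaining luminal markers were not called.

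Transcripts of ERBB3, ERBB4 and ERBB2 were higher after GDC-0941, and those of EGFR did not pass the test. The largest change was that of ERBB3, about 2-fold. Of the 21 probe sets, 7 rose and none fell at an adjusted p under 0.05 (limma, Benjamini-Hochberg over all 54613 probe sets), where 18.8% of all probe sets were called, 8.88% higher and 9.89% lower. At an unadjusted p under 0.05 the count of member probe sets that fell was also 0. In the same 7 the treated arrays all lay above the controls, as in 15.6% of all probe sets. In none did they all lie below, as they did in 18.8% of all probe sets, so the groups were apart in 7 of 21 against a background of 34.3%. RMA signals read each transcript against the rest of its array. In another setting the deposited RMA values of each array were further centred on its hybridisation controls (foreign transcripts added before hybridisation). Those controls had passed through the same RMA processing, so they are not a reference independent of it. Their means were 10.72, 10.65 and 10.86 on the GDC-0941 arrays and 10.94, 10.90 and 10.90 on the control arrays (replicates 1 to 3). With this centring the median of all probe sets moved from -0.01 to 0.16 on the log2 scale. The share of calls that were higher went from 47.3% to 89.9%, with 14320 of the 54613 probe sets called. Of the member probe sets 11 were called higher and none lower, and all members had the same SE of 0.1042.

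**Figure D1:**
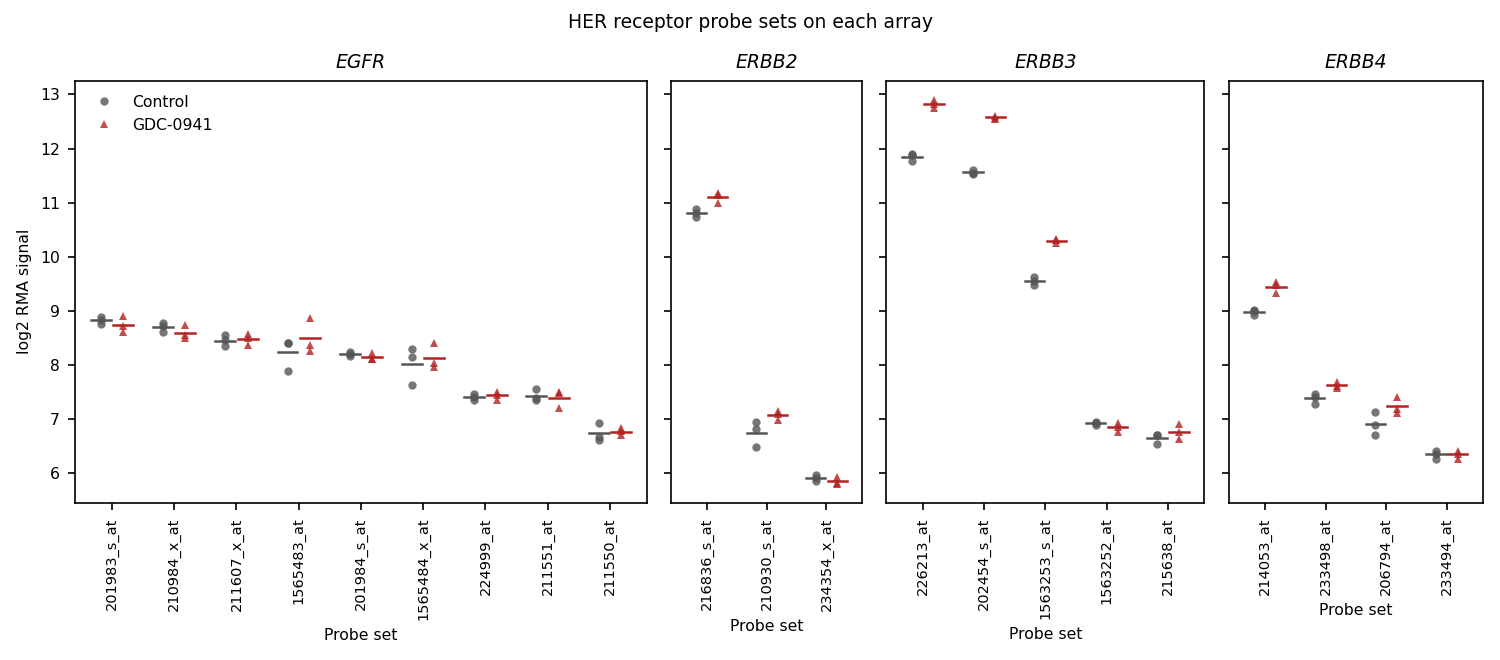
Log2 RMA signal of each of the 21 HER probe sets (x axis, grouped by gene and ordered by mean level) on each array, with circles for the 3 control arrays, triangles for the 3 GDC-0941 arrays and bars for group means. The 3 brightest ERBB3 probe sets are clearly apart between groups, whereas the groups overlap in every EGFR probe set.

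ERBB3, which carries many docking sites for PI3 kinase, had 3 of 5 probe sets higher. The probe set 226213_at read 12.90, 12.74 and 12.82 on the GDC-0941 arrays and 11.87, 11.77 and 11.90 on the controls (log2 RMA signal, replicates 1 to 3). The 2 groups were apart by far more than their own spread, with means of 12.82 ± 0.08 and 11.85 ± 0.07 (SD, n = 3 each). The log2 difference was 0.97 ± 0.07 (SE), a 1.96-fold rise with an adjusted p of 5.16e-06 in limma. Probe set 202454_s_at, designed on the RefSeq mRNA, read 12.61, 12.54 and 12.57 against 11.53, 11.55 and 11.60. Its difference of 1.01 ± 0.06 (SE; 2.02-fold, adjusted p = 1.90e-06 in limma) was the largest of all member probe sets. The third, 1563253_s_at, read 10.31, 10.25 and 10.34 against 9.49, 9.55 and 9.63, a difference of 0.74 ± 0.06 (SE; adjusted p = 2.18e-05 in limma). These 3 kept their calls without any 1 array, at differences of 0.71 to 1.03.

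The other ERBB3 probe sets did not follow. Probe set 1563252_at read 6.76, 6.85 and 6.93 after GDC-0941 and 6.96, 6.89 and 6.94 in controls, so that the groups overlapped, with a difference of -0.08 (95% confidence interval -0.22 to 0.06). Probe set 215638_at read 6.63, 6.91 and 6.76 against 6.54, 6.71 and 6.71, a difference of 0.11 (-0.07 to 0.29). Both intervals lie below those of the 3 that rose. Their means, 6.89 and 6.71, lay under the all-probe-set median of 7.36, whereas the 3 that rose had means of 9.93 to 12.33. With hybridisation control centring 215638_at was called higher (0.28, adjusted p = 0.031 in limma) and 1563252_at was not (0.09, adjusted p = 0.496). Whether the dim ones read an ERBB3 transcript in these cells was not tested.

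ERBB4, a neuregulin receptor with an active kinase, had 2 of 4 probe sets higher. The brightest, 214053_at, read 9.53, 9.34 and 9.47 on the GDC-0941 arrays against 9.02, 8.92 and 9.00 on the controls. Every treated array was above every control, and the difference was 0.47 ± 0.07 (SE), a 1.39-fold rise with an adjusted p of 0.000635 in limma, and the call held when any 1 array was left out. A smaller change was seen in 233498_at, at 7.68, 7.62 and 7.59 against 7.42, 7.28 and 7.47, with a difference of 0.24 ± 0.07 (SE; adjusted p = 0.0282 in limma). That call was lost without any 1 of the 3 treated arrays, control replicate 1 or control replicate 2 (differences 0.19 to 0.26, adjusted p 0.0545 to 0.134 in limma).

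The ERBB4 probe set designed on the RefSeq mRNA, 206794_at, read 7.41, 7.11 and 7.20 against 6.70, 6.90 and 7.13. Here the lowest treated array fell just below the highest control, and the difference of 0.33 ± 0.11 (SE) missed the threshold (adjusted p = 0.055 in limma). It passed without control replicate 3 (0.44, adjusted p = 0.00926 in limma). The threshold was also passed with array weights (0.32, adjusted p = 0.0065) and with a trended, robust variance model (0.33, adjusted p = 0.0292). With hybridisation control centring the difference was 0.50 (adjusted p = 3.24e-05 in limma). The dimmest, 233494_at, lay between 6.27 and 6.42 on all 6 arrays in both groups, with a difference of 0.00 ± 0.07 (SE).

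The promoter window of ERBB4, which rose, is set here beside that of EGFR, which did not pass. Of the 4 genes 3 matched RefSeq's promoter table (GRCh38.p14): EGFR, ERBB2 and ERBB4. Each line gives the 250 bases before the annotated start, 5′ to 3′, with capitals for matches to the AP-2 motif GCCNNNGGC (its own reverse complement) or the forkhead motif GTAAACA (or TGTTTAC on the other strand).
ERBB4, chr2:212538803-212539052, minus strand: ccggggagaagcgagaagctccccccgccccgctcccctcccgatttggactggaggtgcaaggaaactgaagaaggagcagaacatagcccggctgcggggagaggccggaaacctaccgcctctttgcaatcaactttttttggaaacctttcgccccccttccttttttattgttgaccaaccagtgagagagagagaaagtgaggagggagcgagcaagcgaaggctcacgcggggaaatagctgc
EGFR, chr7:55018767-55019016, plus strand: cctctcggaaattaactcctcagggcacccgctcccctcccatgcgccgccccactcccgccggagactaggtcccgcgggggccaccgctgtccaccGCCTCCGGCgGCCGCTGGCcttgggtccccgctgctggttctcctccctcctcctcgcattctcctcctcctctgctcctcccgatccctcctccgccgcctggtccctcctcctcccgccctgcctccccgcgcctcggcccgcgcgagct
The EGFR window held 2 AP-2 matches, GCCTCCGGC and GCCGCTGGC, beginning 152 and 142 bases before the start, and the motifs searched do not overlap. The ERBB4 window held neither motif, nor did that of ERBB2 or the window of a second EGFR start. Of 35116 promoter windows of this length in the table, 2.98% held the forkhead motif and 19.8% the AP-2 motif. The ERBB4 window was 57.2% G or C, close to the median of 58% over all windows, and the EGFR window 73.6%. The ERBB2 window (chr17:39687844-39688093, 65.6% G or C) also holds the start of PGAP3, its neighbour, and is not printed. The EGFR window printed above holds the start of another gene as well, LOC105375284, so its letters are not those of EGFR alone. These matches describe letters only, and binding was not measured.

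ERBB2, the ligandless partner, had 2 of 3 probe sets higher, by smaller amounts. Its bright probe set 216836_s_at read 11.14, 11.00 and 11.19 after GDC-0941 and 10.80, 10.73 and 10.88 in controls. The groups did not overlap, and the difference was 0.30 ± 0.07 (SE), a 1.23-fold rise with an adjusted p of 0.00998 in limma. The call was lost without either of 2 arrays: without GDC-0941 replicate 3 the difference was 0.27 (adjusted p = 0.0517 in limma), and without control replicate 2 it was also 0.27 (adjusted p = 0.0509 in limma). The dim 210930_s_at read 7.15, 6.99 and 7.10 against 6.49, 6.82 and 6.95, with the controls more spread than the treated arrays. Its difference of 0.32 ± 0.10 (SE) only just passed (adjusted p = 0.0498 in limma). It was lost without any 1 treated array, control replicate 1 or control replicate 2 (0.19 to 0.37, adjusted p 0.0742 to 0.145 in limma), and with renewed quantile normalization (adjusted p = 0.086 in limma). The third, 234354_x_at, was at 5.93, 5.83 and 5.81 against 5.86, 5.98 and 5.91, overlapping groups with a difference of -0.06 (95% confidence interval -0.20 to 0.08). The suffix _x_at marks probes that can also bind other transcripts.

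EGFR, the founding member, was read by 9 probe sets, and none of them was called or had groups that did not overlap. Its differences ran from -0.11 to 0.26 with a median of 0.02, 5 of them above 0, and the lowest adjusted p was 0.329 (limma). The probe set with the highest mean, 201983_s_at, read 8.91, 8.61 and 8.71 after GDC-0941 and 8.77, 8.88 and 8.83 in controls, a difference of -0.09 (95% confidence interval -0.26 to 0.09). The one designed on the RefSeq mRNA, 201984_s_at, read 8.12, 8.22 and 8.11 against 8.21, 8.17 and 8.24, a difference of -0.06 (-0.19 to 0.07). In these probe sets the intervals exclude a change of the size seen in ERBB3, in either direction. The widest intervals belonged to 1565483_at (-0.09 to 0.62) and 1565484_x_at (-0.23 to 0.46). In both of them GDC-0941 replicate 2 was the highest array (8.86 and 8.42) and control replicate 3 the lowest (7.89 and 7.63), while the other 4 arrays lay between 7.97 and 8.42. With hybridisation control centring these EGFR probe sets were called higher (0.43 and 0.29), while the other 7 were not. Every member probe set had the same SE of 0.1042 in that setting. As reported, these EGFR probe sets had larger SEs of 0.1624 and 0.1575. Of the 9, 8 lay above the median level of all probe sets.

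**Figure D2:**
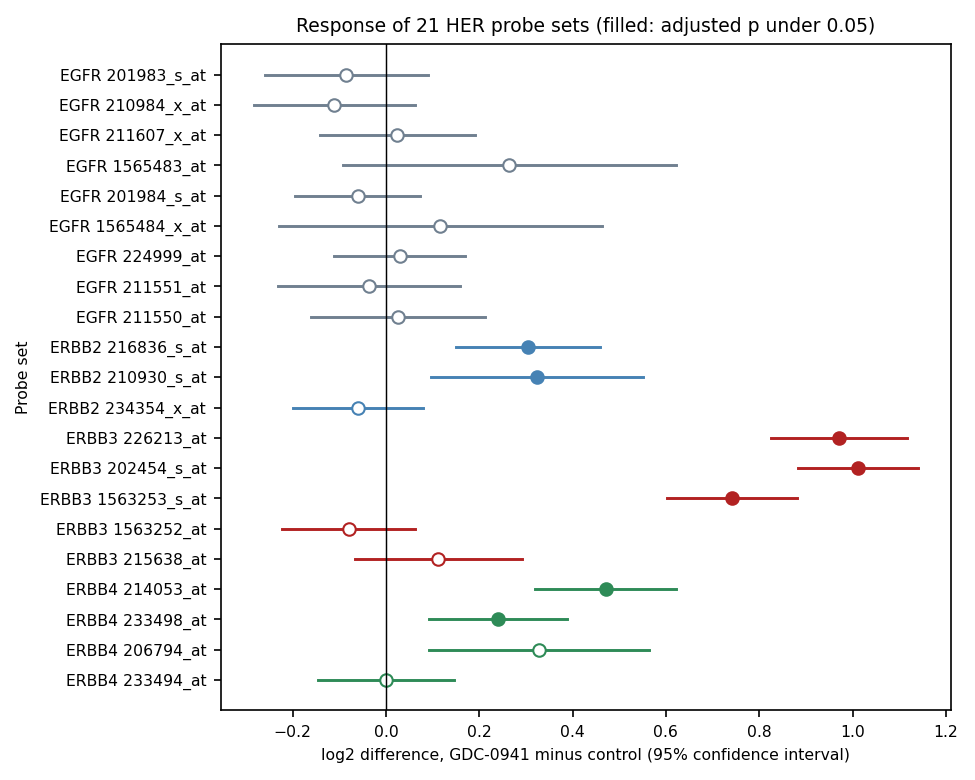
Log2 difference, GDC-0941 minus control, of each HER probe set (points) with its 95% confidence interval (bars), filled where the adjusted p was under 0.05. The 3 brightest ERBB3 probe sets lie between 0.74 and 1.01, the called ERBB4 and ERBB2 ones between 0.24 and 0.47, and all 9 EGFR intervals include 0.

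The 4 receptors were next compared with each other within arrays, using for each gene its probe set of highest mean. The ERBB3 signal minus the EGFR signal was 4.08 ± 0.08 after GDC-0941 and 3.02 ± 0.11 in controls (SD, n = 3 each), so ERBB3 moved by 1.06 ± 0.08 (SE) more on the log2 scale. Against ERBB2 it moved by 0.67 ± 0.04 (SE) more, and against ERBB4 by 0.50 ± 0.02 (SE) more. In each of these 3 comparisons the 3 treated arrays lay above the 3 controls, and the exact two-sided permutation test gave p = 0.1 (0.1 after adjustment over the 3), the smallest it can give with 3 arrays against 3. None could therefore pass 0.05. ERBB3 had the largest difference of the 4 in these same arrays, so its excess over each of the others follows from that ranking. A level of one probe set against another has no meaning in transcript numbers, so only the change in these differences is read. The change stayed above 0 without any one array, at 0.99 to 1.10 for EGFR, 0.64 to 0.71 for ERBB2 and 0.48 to 0.51 for ERBB4. With the mean of all probe sets of a gene the changes were 0.53, 0.36 and 0.29.

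The HER genes were then set beside the other receptor tyrosine kinases, each gene by its probe set of highest mean, in a fit over 19775 genes in which 27.8% were called, 12.1% higher and 15.6% lower (limma, adjusted p under 0.05). Values for genes from here on come from that fit. Of the 4 HER genes 3 rose and none fell, and at an unadjusted p under 0.05 none fell either. In these 3 every treated array lay above every control, as in 17.5% of genes, while 24% had all treated arrays below and 41.5% had groups that did not overlap. Of 51 other receptor tyrosine kinases 4 rose and 9 fell, with a median log2 difference of -0.06 against -0.02 for all genes. ERBB3 had the largest rise of the 55, ERBB4 the second and ERBB2 the third, while EGFR was 36th. Over all genes, ERBB3 had the 47th largest difference, ERBB4 the 560th and ERBB2 the 1295th. ERBB3 kept its first place with every rule for choosing the probe set and without any 1 array. With the mean of all probe sets ERBB4 held place 3 and ERBB2 place 6. With the probe set of largest variance they held places 3 and 5, and without GDC-0941 replicate 3 ERBB2 held place 4. The place of EGFR depended on the probe set. It was 6 with unmarked probe sets (names without _s, _x or _a before _at) first. With the probe set of largest variance it was 9 (0.26 in both, not called). With the mean it was 18 (0.02), and it ran from 23 to 45 without 1 array.

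The next largest rises among receptor kinases were small: STYK1 differed by 0.26 ± 0.09, IGF1R, the receptor of insulin-like growth factor, by 0.24 ± 0.06 and LMTK3 by 0.21 ± 0.06 (SE; adjusted p 0.0419, 0.01 and 0.0159 in limma). The largest falls were those of FGFR3, a fibroblast growth factor receptor (-0.85 ± 0.06), the ephrin receptor EPHA1 (-0.50 ± 0.07) and TYRO3 of the TAM family (-0.46 ± 0.05). The count that rose was 1 without control replicate 1, 3 without GDC-0941 replicate 2 and 2 without any other 1 array. STYK1 lost its call in each of these except the one without GDC-0941 replicate 3 (0.17 to 0.27, adjusted p 0.0628 to 0.133 in limma), and LMTK3 lost it without GDC-0941 replicate 3, control replicate 1 or control replicate 2 (0.18 to 0.21, adjusted p 0.0605 to 0.0785). With hybridisation control centring 12 rose and 3 fell, where 6583 of 19775 genes were called, 86.4% of them higher. With array weights 6 rose and 16 fell, where 9411 genes were called, 45% of them higher. The same backgrounds hold for the counts of the later lists in these settings. Neither of the 2 STYK1 probe sets was called in the fit over probe sets; by gene it was 0.06 with array weights (adjusted p = 0.434 in limma) and was not called under any of the 3 other rules for the probe set (0.27 to 0.28, adjusted p 0.0568 to 0.158). The fall of EPHA1 rested on 1 of its 3 probe sets and was -0.08 with unmarked probe sets first (adjusted p = 0.551).

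**Figure D3:**
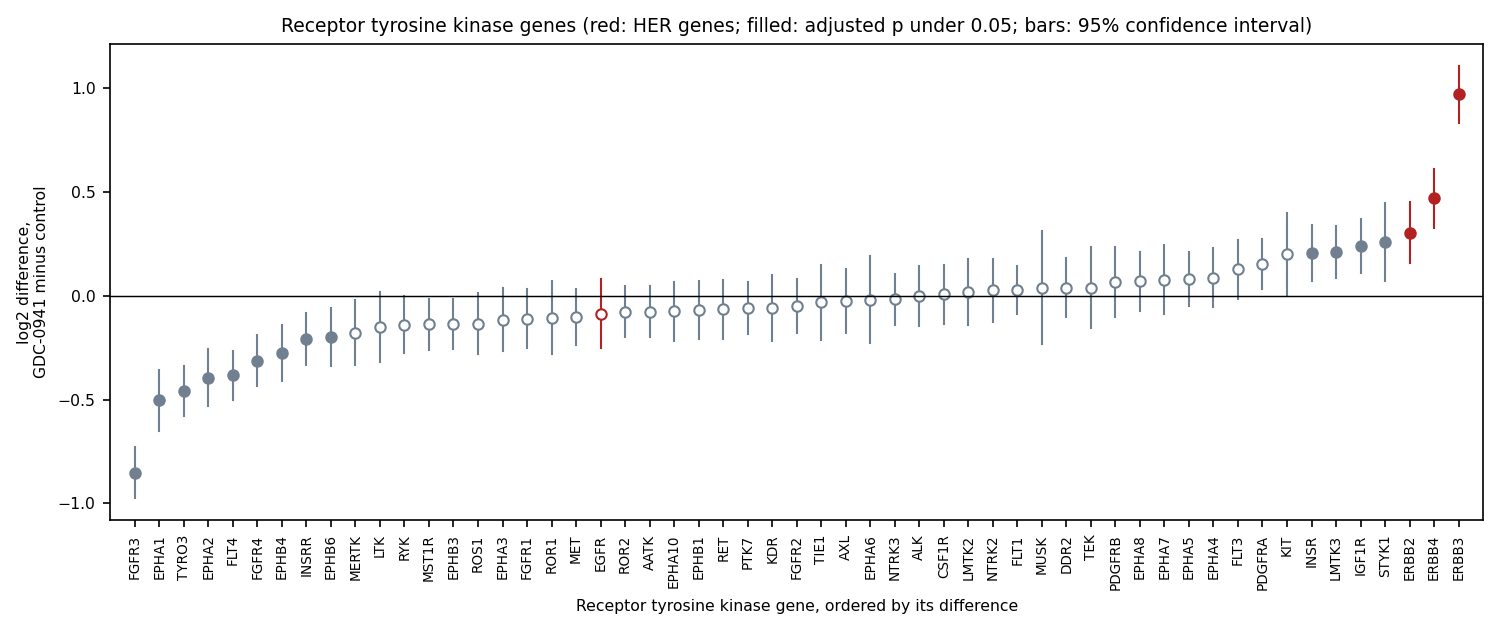
Log2 difference, GDC-0941 minus control (y axis), of 55 receptor tyrosine kinase genes ordered by that difference, with 95% confidence intervals, HER genes in red and called genes filled. ERBB3 at 0.97, ERBB4 at 0.47 and ERBB2 at 0.30 are the 3 highest, EGFR lies at -0.09 with the probe set shown (0.26 with unmarked probe sets first), and FGFR3 is lowest at -0.85.

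Among the ligands of these receptors, 2 of 9 measured genes rose and 1 fell, with a median of -0.01. EGF, a ligand of EGFR, read 8.76, 8.54 and 8.69 after GDC-0941 against 8.05, 8.19 and 8.29 in controls, a difference of 0.49 ± 0.08 (SE; adjusted p = 0.00051 in limma). TGFA, a second EGFR ligand, differed by 0.17 ± 0.06 (SE; adjusted p = 0.04), and none of its 3 probe sets passed in the fit over probe sets. HBEGF, which binds EGFR and ERBB4, fell by 0.25 ± 0.06 on the log2 scale (SE; adjusted p = 0.00573), at 7.75, 7.70 and 7.78 against 8.05, 7.94 and 8.00. The treated arrays of EGF were all above the controls and those of HBEGF all below. The neuregulins, which bind ERBB3 and ERBB4, did not pass: NRG1, NRG2, NRG3 and NRG4 differed by -0.04, -0.06, -0.09 and -0.01. The TGFA call was lost without GDC-0941 replicate 1, GDC-0941 replicate 3 or any 1 control array (0.15 to 0.18, adjusted p 0.0518 to 0.161 in limma), and with the mean of its probe sets the difference was 0.06 (adjusted p = 0.353). HBEGF was not called with hybridisation control centring (-0.08, adjusted p = 0.484) or with the mean of its 4 probe sets (-0.14, adjusted p = 0.0548). AREG and EPGN were not analysed here.

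Of 7 genes linked to the release of membrane-bound ligands, 2 rose and none fell, and none fell at an unadjusted p under 0.05 (limma). The metalloproteases ADAM9 and ADAM10 differed by 0.35 ± 0.06 and 0.22 ± 0.05 (SE; adjusted p 0.00144 and 0.00905 in limma). ADAM17, which sheds TGFA and HBEGF, differed by 0.14 ± 0.06 and did not pass (adjusted p = 0.138). Without control replicate 2 ADAM10 sat at the threshold (0.20, adjusted p = 0.05), leaving 1 call. ADAM10 was not called with its probe set of largest variance (0.16, adjusted p = 0.165 in limma), and with hybridisation control centring 5 rose.

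Genes that limit or turn over the receptors changed in both directions. Of 22, 8 rose and 4 fell, with a median of 0.07, and with hybridisation control centring 11 rose and 1 fell. LRIG3 and LRIG1 are transmembrane proteins with leucine-rich repeats, and LRIG1 promotes the breakdown of HER receptors. LRIG3 read 9.57, 9.61 and 9.51 against 8.84, 8.74 and 8.64, a difference of 0.82 ± 0.07 (SE; 1.77-fold, adjusted p = 5.19e-06 in limma). LRIG1 read 11.85, 11.78 and 11.86 against 11.08, 11.05 and 11.11, a difference of 0.75 ± 0.06 (SE; 1.68-fold, adjusted p = 3.27e-06 in limma), and 3 of its 4 probe sets rose. CBLB, a ubiquitin ligase of the CBL family, differed by 0.58 ± 0.11 (SE; adjusted p = 0.00185). All of these had treated arrays above every control.

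RNF41, the ubiquitin ligase also called NRDP1 that targets ERBB3, had the largest fall in this group. It read 8.93, 8.96 and 9.01 against 9.38, 9.38 and 9.46, and fell by 0.44 ± 0.06 on the log2 scale (SE; adjusted p = 0.000126 in limma), with 2 of its 3 probe sets lower. CBLC, another CBL ligase, differed by -0.39 ± 0.08, and STUB1, a ligase that acts with HSP90 on ERBB2, by -0.29 ± 0.06 (SE; adjusted p 0.00302 for both). With hybridisation control centring RNF41 was the 1 gene still lower, while CBLC (-0.22, adjusted p = 0.0638) and STUB1 (-0.12, adjusted p = 0.322) did not pass. CBLC was lower in 1 of its 2 probe sets, and with unmarked probe sets first it was -0.20 (adjusted p = 0.0678 in limma). The feedback inhibitor ERRFI1 (MIG6) differed by 0.03 ± 0.07, and CBL itself by 0.01 ± 0.06.

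Of 8 chaperone genes that help the receptors fold or stay stable, 1 rose and 2 fell. STIP1, which links HSP70 to HSP90, read 10.59, 10.23 and 10.44 against 11.34, 11.31 and 11.39, so that it fell by 0.92 ± 0.08 on the log2 scale (SE; adjusted p = 1.01e-05 in limma) in both of its probe sets. HSP90AB1, the constitutive HSP90, fell by 0.27 ± 0.05 (SE; adjusted p = 0.00283), but not with hybridisation control centring (-0.10, adjusted p = 0.408). CDC37L1, a relative of the kinase chaperone CDC37, differed by 0.18 ± 0.06 (SE; adjusted p = 0.0351). Its call was lost without GDC-0941 replicate 1, GDC-0941 replicate 3 or any 1 control array (0.14 to 0.20, adjusted p 0.063 to 0.133 in limma) and with the replicate block (adjusted p = 0.052). None of its 3 probe sets was called in the fit over probe sets, where they ran from -0.12 to 0.18, and their mean differed by 0.03 (adjusted p = 0.733). AHSA1 was not analysed here.

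Of 21 measured genes whose proteins bind or relay from the receptors, 6 rose and 4 fell, with a median of 0.05. With hybridisation control centring 7 rose and 1 fell. ERBIN, a scaffold that binds the tail of ERBB2, differed by 0.65 ± 0.06 (SE; adjusted p = 9e-06 in limma), with 2 of 3 probe sets higher and the remaining one, at -0.04, the only one not marked as shared between transcripts. GRB7, an adaptor of ERBB2 and ERBB3, differed by 0.49 ± 0.07, and EPS15, an endocytic substrate of EGFR, by 0.39 ± 0.06 (SE; adjusted p 0.000395 and 0.000308), the latter in 1 of its 2 probe sets and at 0.03 with unmarked probe sets first (adjusted p = 0.807). PA2G4, the ERBB3-binding protein EBP1, read 11.44, 11.26 and 11.33 against 11.75, 11.84 and 11.86. It fell by 0.47 ± 0.06 on the log2 scale (SE; adjusted p = 0.000173 in limma) in both probe sets, opposite to ERBB3 itself. PLCG1, phospholipase C gamma, and the exchange factor VAV2 fell by 0.37 ± 0.06 and 0.35 ± 0.06 (SE; adjusted p 0.000409 and 0.00127), but neither passed with hybridisation control centring (adjusted p 0.0884 and 0.139).

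Of 24 transcription factors linked to HER gene expression, 12 rose and none fell, where 12.1% of all genes rose, and the median was 0.19. At an unadjusted p under 0.05 (limma) 12 rose and 2 fell. FOXO3, a FOXO factor held back by AKT, read 11.04, 10.96 and 11.00 against 10.09, 10.08 and 10.06. Its difference of 0.93 ± 0.05 (SE, 1.90-fold, adjusted p = 7.24e-07 in limma) was close in size to that of ERBB3, and 3 of its 4 probe sets rose. FOXO1 differed by 0.42 ± 0.08 (SE, adjusted p = 0.00132 in limma). FOXO4 at 0.23 ± 0.13 and FOXO6 at -0.15 ± 0.07 were not called (adjusted p 0.241 and 0.138 in limma). FOXO activity was not measured. EHF, an epithelial ETS factor, differed by 0.55 ± 0.06 in 6 of 6 probe sets called, and FOXA1, a pioneer factor of luminal cells, by 0.53 ± 0.06 in 2 of 2 (SE; adjusted p 2.98e-05 and 3.03e-05). Without GDC-0941 replicate 1 there were 2 members called lower, without control replicate 1 or with renewed quantile normalization there was 1, and with array weights there were 3. The list mixes activators and repressors, and its members were picked with results of these data known.

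**Figure D4:**
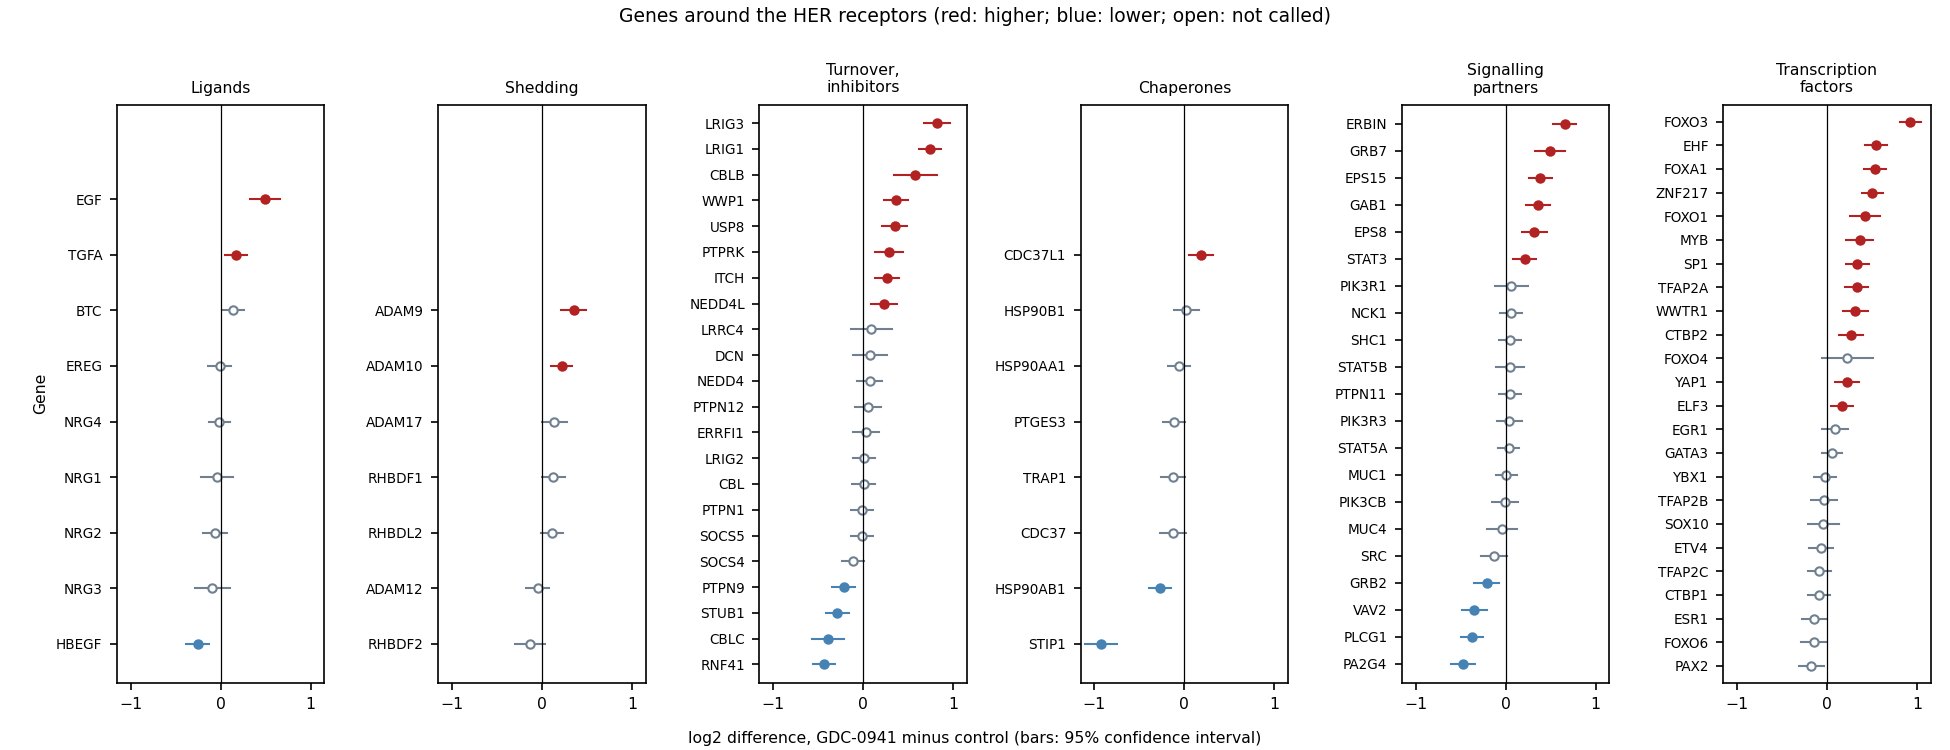
Log2 difference, GDC-0941 minus control (x axis, points with 95% confidence intervals), of every measured gene in 6 lists around the HER receptors, red where higher, blue where lower and open where not called. LRIG3, LRIG1 and FOXO3 lie between 0.75 and 0.93, STIP1 is lowest at -0.92, and the neuregulins sit near 0.

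The genes beside the HER genes on their chromosomes did not share one direction. Of 6 protein-coding neighbours of ERBB3 (3 on each side, on chromosome 12) RAB5B and IKZF4 rose by 0.31 ± 0.07 and 0.29 ± 0.05 (SE), and PA2G4, the gene next to ERBB3, fell. Of the 6 around ERBB2 on chromosome 17 only GRB7 was called. PGAP3, whose start lies in the ERBB2 promoter window, differed by 0.04 ± 0.05, and MIEN1, the next gene on the other side, by -0.17 ± 0.06 (SE; adjusted p = 0.0658 in limma; 0.0413 without GDC-0941 replicate 1, and under 0.05 in 4 other settings). Beside ERBB4 on chromosome 2, IKZF2 and SPAG16 differed by 0.40 ± 0.08 and 0.25 ± 0.06 (SE; adjusted p 0.00172 and 0.00793), each in 1 of 3 probe sets. With the mean of their probe sets they were 0.14 and 0.05 and were not called (adjusted p 0.068 and 0.553 in limma). Beside EGFR on chromosome 7, VOPP1 and COBL fell by 0.33 ± 0.06 and 0.27 ± 0.06 (SE; adjusted p 0.00193 and 0.00587), though not with hybridisation control centring. LANCL2, next to EGFR, differed by 0.21 ± 0.06 (SE; adjusted p = 0.0258), and its call was lost without GDC-0941 replicate 3 or control replicate 2 (0.17 in both, adjusted p 0.126 and 0.125) and with the mean of its probe sets (0.02, adjusted p = 0.856). None of these neighbours had a difference as large as that of ERBB3.

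The genes most like each called receptor were found by the root mean square difference over the 6 arrays, after centring each gene on its control mean. For ERBB3 they were ARID5B, STAG2, TSPAN12, TSC22D1 and AHNAK2, at 0.01 to 0.05 on the log2 scale. STAG2, a cohesin subunit, differed by 0.98 ± 0.06 (SE) in 3 of 3 probe sets called, and TSPAN12, a tetraspanin, by 0.94 ± 0.07 (SE) in 3 of 3. ARID5B, TSC22D1 and AHNAK2 were called in 1 probe set each, of 5, 4 and 2. For ERBB4 they were SLC35A5, PRKAB2 (a regulatory subunit of AMP-activated kinase), SMCR8, RABEP1 and TRPM7, all at 0.02 to 0.03, with differences of 0.46 to 0.49. For ERBB2 they were NBAS, PIM3 (a serine-threonine kinase), DYNC2LI1, ARHGEF18 and FRAT2, at 0.02 to 0.03, with differences of 0.29 to 0.31. The closeness reflects a like step between the groups in 6 arrays and describes these arrays only.

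**Figure D5:**
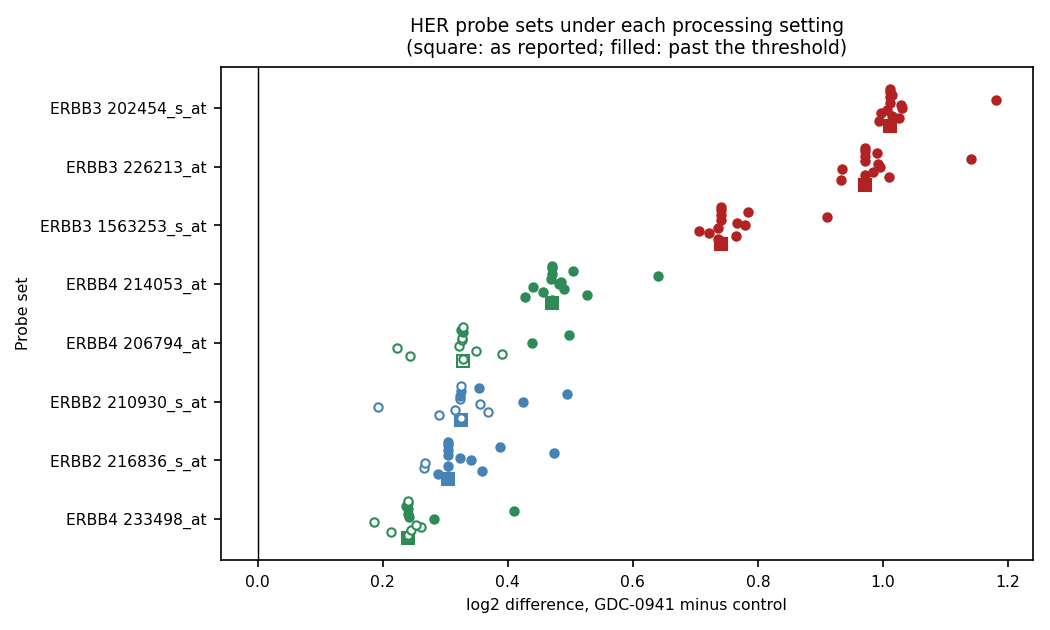
Log2 difference, GDC-0941 minus control (x axis), of the 7 called HER probe sets and of ERBB4 206794_at under every processing setting, with a square for the reported value and filled symbols where the threshold was passed. The 3 ERBB3 probe sets and ERBB4 214053_at are filled throughout, while the remaining ones lose or gain the call in some settings at differences that stay above 0.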

How the data were processed

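Transcripts were measured on 6 Affymetrix arrays, 3 per group. The deposited values are log2 signals, 1 per probe set and array. RMA (background correction, normalization across arrays and summary of each probe set) is named in the submitters' processing notes, with version and chip definition not given in the sources used here. Values ran from 3.00 to 14.81, which sets the scale as log2. RMA values carry no detection call and cannot show a shift common to most transcripts.

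Of 54613 probe sets other than the 62 controls, 41091 named 1 gene, 1801 several and 11721 none; 41037 symbols were updated through Entrez identifiers with RefSeq GRCh38.p14, giving 19775 genes. No probe set named a HER gene together with another gene. Differences were tested with limma 3.58.1 in R 4.3.3 (lmFit, eBayes, two-sided), on all probe sets for members and on 1 probe set per gene (highest mean) for lists, with Benjamini-Hochberg adjustment over each whole table. Confidence intervals are at 95%. The fit was tested on simulated data. Precision is limited by the 3 arrays per group, and the labels tie no replicate to a culture of its own, which means that p-values reflect only the spread among these arrays, possibly technical. Arrays correlated at 0.9970 to 0.9983 within groups and 0.9917 to 0.9942 between them.

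The members and lists were chosen with earlier results of these data known. Of each list, up to 3 called genes each way were named, or the one of smallest p where none was called; chromosomal neighbours were named where called, and the 5 nearest genes of each called receptor. ADAM17, ERRFI1, CBL, the neuregulins, FOXO1, FOXO4, FOXO6, PGAP3 and MIEN1 were named for their roles after their values were seen. Alternatives were leaving out each array, a replicate block, 3 other references or normalizations, 2 variance models, a filter on level, a stricter threshold and 3 other rules for the probe set. Figures were drawn with matplotlib 3.10.9.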

Additional observations from a re-analysis of the deposited data

How the results depend on the processing

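ERBB3 (3 probe sets) and ERBB4 214053_at kept direction and call in every alternative run, with ERBB3 differences of 0.71 to 1.18 and ERBB4 214053_at at 0.43 to 0.64. The count of HER probe sets called higher, 7 as reported, was 4 to 8 without 1 array and 5 with the replicate block. It was 4 without GDC-0941 replicate 3 or control replicate 2. With hybridisation control centring, which adds the same amount to every log2 difference, it was 11. None was called lower in any alternative over probe sets. With array weights, EGFR was called lower by gene (-0.12, adjusted p = 0.0496 in limma), making 1 HER gene lower. In that setting 9411 of 19775 genes were called, 45% of them higher. The cause of the EGFR call was not tested. HER genes called higher were 3 without any 1 array. The numbers do not pair the arrays: deviations of same-numbered arrays correlated at -0.344, 0.139 and -0.0274, and with the replicate block 8514 probe sets were called against 10251. In the block ERBB2 210930_s_at (adjusted p = 0.0716) and ERBB4 233498_at (0.0533) lost their calls. The changes of ERBB3 against EGFR, ERBB2 and ERBB4 were 1.06, 0.67 and 0.50 with the numbers paired, at an exact p of 0.25, the smallest that 3 pairs allow. With array weights 16901 probe sets were called, and 6104 at an adjusted p under 0.01. Of the genes called as reported and tested under the alternatives, ERBIN (-0.044 with unmarked probe sets first) and LANCL2 (-0.024 with its probe set of largest variance) changed sign. Genes not called also crossed 0, EGFR among them (-0.17 to 0.26). No detection measure comes with these values, so for the dimmest member probe sets a small change cannot be told from none.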
